A study of Mus musculus with 5 samples.

Results

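The plasma cell genes described here are 10 mouse genes that act in, or mark, antibody-secreting cells: Prdm1, Zbtb20, Xbp1, Ell2, Sub1, Slamf7, Tnfrsf13b, Il6ra, Cd93 and Cxcr4. An interval of a peak list belonged to a gene when its centre lay in the gene body or within 50 kb of it, in the GENCODE M1 annotation of the mm9 genome. By this rule 35 of the 5590 intervals of the 5 lists lay at 9 of the 10 genes, and Xbp1 had none. The intervals came from chromatin immunoprecipitation followed by sequencing (ChIP-seq), which finds stretches of genome enriched for DNA bound by a protein, here the transcription factors IRF4 and IRF8. All cells were B cells of WT C57BL/6 mice. Splenic naïve B cells were cultured with 10 µg/ml of lipopolysaccharide (LPS), a bacterial product that drives B cells to divide and to become antibody-secreting cells. Each culture time had an IRF4 library (antibody M-17) and an IRF8 library (antibody C-19), at 48 h and at 72 h. The fifth library was IRF8 in germinal centre (GC) B cells, sorted on day 13 after immunisation with NP-KLH. There was 1 library per group and hence no replicate of any value, and no library of plasma cells was analysed here. The lists hold binding positions and no expression values, so the cell type labels could not be checked against marker genes.

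IRF4 and IRF8 are related factors that bind DNA weakly alone and more tightly beside a partner. Beside PU.1 or SpiB, which are ETS factors, they bind the ETS-IRF composite element (EICE), with AP-1 factors such as BATF and JUN they bind the AP-1-IRF composite element (AICE), and as dimers they bind the interferon-stimulated response element (ISRE). IRF4 is needed for plasma cells to form, while IRF8 is abundant in B cells and germinal centres. Prdm1 encodes Blimp-1, the repressor that ends the B cell programme, and Xbp1 encodes the factor that builds the secretory apparatus. What each of the other genes encodes is given beside it.

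The lists held 1573 intervals for IRF4 at 48 h, 898 for IRF4 at 72 h, 234 for IRF8 at 48 h, 1059 for IRF8 at 72 h and 1826 for GC IRF8. The 4 LPS libraries had 3065426 to 4375858 tags, and 0.18% to 0.82% of the tags fell in peaks. A peak of an LPS list is 500 bp long and carries a Normalized Tag Count, the number of tags in it scaled to 10000000 tags per library. The GC intervals had a median width of 1144.5 bp and carry no value. The 28 LPS peaks at the plasma cell genes held 9 to 24 tags each, so each of these tag counts is followed by its exact 95% Poisson interval, which covers counting error only. The lowest Normalized Tag Count of each LPS list was 23.6, 18.6, 20.6 and 22.8 in the order above. A place missing from a list may hold tags below these levels. It may also hold more, since a peak had also to be at least 4-fold over the local 10000 bp.

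The stretches below show element matches at the genes, each reading 5′ to 3′ on the + strand of mm9 over 201 bases around a peak centre. Matches to an EICE, ISRE, AP-1 site or AICE are in capitals. The stretches were read from the reference genome. Both strands were searched for elements, up to 100 bp to either side of each centre. The EICE was GGAANNGAAA, the ISRE core GAAANNGAAA, and AP-1 TGACTCA or TGAGTCA. The adjacent AICE was GAAA directly followed by an AP-1 site, and the spaced AICE was TTTC, any 4 bases and an AP-1 site, so each AICE match is also an AP-1 match. An ETS site, GAGGAAG, can overlap an EICE, and ETS bases outside an EICE are printed in lower case. For each gene with an element, the peak of most tags among its peaks with an EICE, ISRE or AP-1 site is shown. Prdm1 carries an ISRE inside the gene in the IRF4 48 h list and another just upstream of the gene in the GC list (printed inverted, on the − strand).
Prdm1 intron, IRF4 48 h, ISRE, chr10:44164307-44164507: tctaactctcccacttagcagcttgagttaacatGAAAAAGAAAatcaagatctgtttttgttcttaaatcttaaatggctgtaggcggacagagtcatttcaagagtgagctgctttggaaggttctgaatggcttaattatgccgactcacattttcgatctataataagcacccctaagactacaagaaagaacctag
Prdm1 upstream, GC IRF8, ISRE, chr10:44249356-44249556: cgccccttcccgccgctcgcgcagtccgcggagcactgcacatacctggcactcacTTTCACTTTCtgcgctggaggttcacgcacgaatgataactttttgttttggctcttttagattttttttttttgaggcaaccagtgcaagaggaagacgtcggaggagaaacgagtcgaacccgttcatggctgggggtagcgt

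Zbtb20, Il6ra and Cxcr4 share the same 10 bases, an EICE reading GGAAGTGAAA, which is printed inverted at Il6ra.
Zbtb20 intron, IRF8 72 h, EICE, chr16:43364320-43364520: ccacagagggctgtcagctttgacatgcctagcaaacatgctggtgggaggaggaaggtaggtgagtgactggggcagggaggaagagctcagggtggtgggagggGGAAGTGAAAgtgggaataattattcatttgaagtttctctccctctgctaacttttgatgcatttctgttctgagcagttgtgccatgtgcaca
Il6ra intron, IRF8 72 h, EICE, chr3:89715175-89715375: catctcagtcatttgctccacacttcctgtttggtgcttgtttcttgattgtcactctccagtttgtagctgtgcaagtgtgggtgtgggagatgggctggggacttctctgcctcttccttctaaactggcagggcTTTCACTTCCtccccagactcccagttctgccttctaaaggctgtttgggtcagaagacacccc
Cxcr4 upstream, IRF4 72 h, EICE, chr1:130504819-130505019: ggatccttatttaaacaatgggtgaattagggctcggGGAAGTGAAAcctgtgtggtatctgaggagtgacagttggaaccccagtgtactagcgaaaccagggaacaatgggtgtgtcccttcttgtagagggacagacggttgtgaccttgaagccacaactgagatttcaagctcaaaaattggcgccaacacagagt

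The remaining elements include AP-1 sites, found at 8 of the 25 distinct places at the plasma cell genes. At Ell2 an inverted EICE stands beside an AP-1 site in 1 peak, and a spaced AICE lies in the other. At Sub1 the IRF4 72 h peak holds an AP-1 site and, downstream of it, a spaced AICE that the IRF4 48 h window, centred 99 bp away, does not reach. The spaced AICE of Zbtb20 is printed inverted.
Ell2 intron, IRF4 72 h, EICE and AP-1, chr13:75877510-75877710: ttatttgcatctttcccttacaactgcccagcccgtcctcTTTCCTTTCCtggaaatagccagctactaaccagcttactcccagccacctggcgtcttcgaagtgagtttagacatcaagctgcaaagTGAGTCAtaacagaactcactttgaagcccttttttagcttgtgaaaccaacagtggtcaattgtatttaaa
Ell2 intron, IRF4 48 h, spaced AICE, chr13:75898338-75898538: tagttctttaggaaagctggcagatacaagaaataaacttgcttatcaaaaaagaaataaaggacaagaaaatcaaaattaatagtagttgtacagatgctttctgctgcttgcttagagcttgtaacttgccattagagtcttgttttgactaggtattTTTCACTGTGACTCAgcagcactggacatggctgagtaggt
Sub1 upstream, IRF4 48 h, AP-1, chr15:11940023-11940223: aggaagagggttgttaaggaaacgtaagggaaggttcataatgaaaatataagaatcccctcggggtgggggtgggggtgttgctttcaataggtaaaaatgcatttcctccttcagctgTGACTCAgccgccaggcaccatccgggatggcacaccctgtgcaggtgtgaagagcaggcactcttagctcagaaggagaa
Sub1 upstream, IRF4 72 h, AP-1 and spaced AICE, chr15:11940122-11940322: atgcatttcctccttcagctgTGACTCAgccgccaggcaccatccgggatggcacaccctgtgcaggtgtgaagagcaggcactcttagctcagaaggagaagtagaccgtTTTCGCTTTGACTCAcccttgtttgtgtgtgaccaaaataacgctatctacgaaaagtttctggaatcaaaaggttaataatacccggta
Zbtb20 intron, IRF4 48 h, spaced AICE, chr16:43493849-43494049: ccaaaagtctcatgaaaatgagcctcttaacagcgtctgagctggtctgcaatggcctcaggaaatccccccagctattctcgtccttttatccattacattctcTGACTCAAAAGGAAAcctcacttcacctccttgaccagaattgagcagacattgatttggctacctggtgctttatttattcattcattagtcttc
Slamf7 upstream, in Cd48, IRF4 48 h, AP-1, chr1:173615080-173615280: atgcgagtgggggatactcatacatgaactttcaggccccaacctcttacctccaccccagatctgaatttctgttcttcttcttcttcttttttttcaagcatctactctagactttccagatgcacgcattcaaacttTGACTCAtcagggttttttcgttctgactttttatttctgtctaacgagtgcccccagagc
Tnfrsf13b upstream, IRF4 48 h, AP-1, chr11:60935974-60936174: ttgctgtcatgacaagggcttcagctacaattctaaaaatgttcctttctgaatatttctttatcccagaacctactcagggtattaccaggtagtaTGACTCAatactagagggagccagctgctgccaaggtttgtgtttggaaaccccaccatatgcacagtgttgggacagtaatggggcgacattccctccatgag

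Most of the plasma cell genes had an interval for IRF4 at 48 h in LPS-activated B cells. The 10 genes were picked with earlier results of these peak lists known, so the shares over all genes beside their counts are a description, and the counts are no independent support for an excess. IRF4 lay at 8 of the 10 genes at 48 h, where 11.5% of all 22241 protein-coding genes had an interval by the same rule. At 72 h it lay at 6 of the 10, against 7.61% of all genes. Within 10 kb in place of 50 kb the IRF4 72 h count was 3 of 10 (3.28% of all genes), and among peaks of at least the pooled median tag count it was also 3 of 10 (3.13%). IRF8 lay at 1 of the 10 at 48 h (1.99% of all genes), at 3 at 72 h (8.82%) and at 5 in GC B cells (15.6%). Within 10 kb the GC count was 3 of 10 (7.45%), and the IRF8 48 h count was 0 (0.576%) among peaks of at least the pooled median. With the 5 lists joined, 9 of the 10 genes had an interval against 28.2% of all genes, and 4 (Zbtb20, Sub1, Slamf7 and Tnfrsf13b) had intervals in at least 3 lists against 4.75%. The only IRF4 72 h interval of Slamf7 lay in an intron of Cd48, nearer to the start of Cd48. By nearest transcription start site within 50 kb, the IRF4 counts were 7 of 10 at 48 h and 5 of 10 at 72 h. No share over all genes is given for that rule. The IRF8 48 h share rests on a single gene, Zbtb20.

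The span searched at the genes was not unusual apart from Zbtb20, whose body of 767 kb makes its span 866.7 kb. The median span was 119.6 kb for the 10 genes and 115.5 kb for all genes. Over the 2.04 Mb searched, the IRF4 48 h list held 7.36 intervals per Mb against 0.588 over the genome. The other LPS lists held 3.43, 0.491 and 2.45 per Mb (IRF4 at 72 h and IRF8 at either time) against 0.334, 0.0851 and 0.395, and the GC list 3.43 against 0.688. Genome-wide values include gene-poor stretches, so the share of genes is the closer background.

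**Figure D1:**
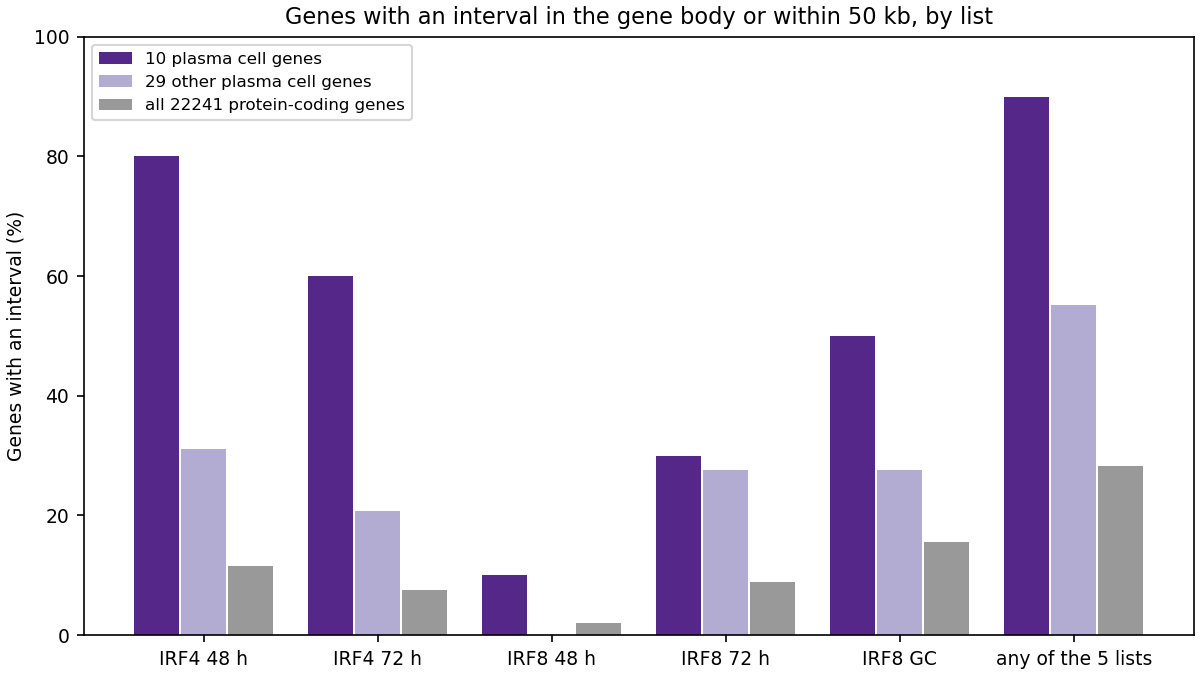
Bars give the percent of genes with an interval in the gene body or within 50 kb, for each list and for the 5 lists joined, among the 10 plasma cell genes, 29 other plasma cell genes and all 22241 protein-coding genes. In the IRF4 48 h list the bars stand for 8 of 10 plasma cell genes and 11.5% of all genes. The 10 genes were picked with earlier results of these lists known.

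Of the 35 intervals, 14 lay in a gene body, 19 upstream and 2 past the gene end. By annotation 16 were intronic, 18 intergenic and 1 coding. Only 3 centres lay within 1 kb of a transcription start site (TSS) of their own gene, at Zbtb20, Tnfrsf13b and Cxcr4. The nearest TSS of any protein-coding gene was that of the plasma cell gene for 32 intervals, and that of Ly9 or Cd48 for the other 3, all at Slamf7. The sequence was found once in the genome for 34 intervals, the exception being a GC interval at Sub1.

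**Figure D2:**
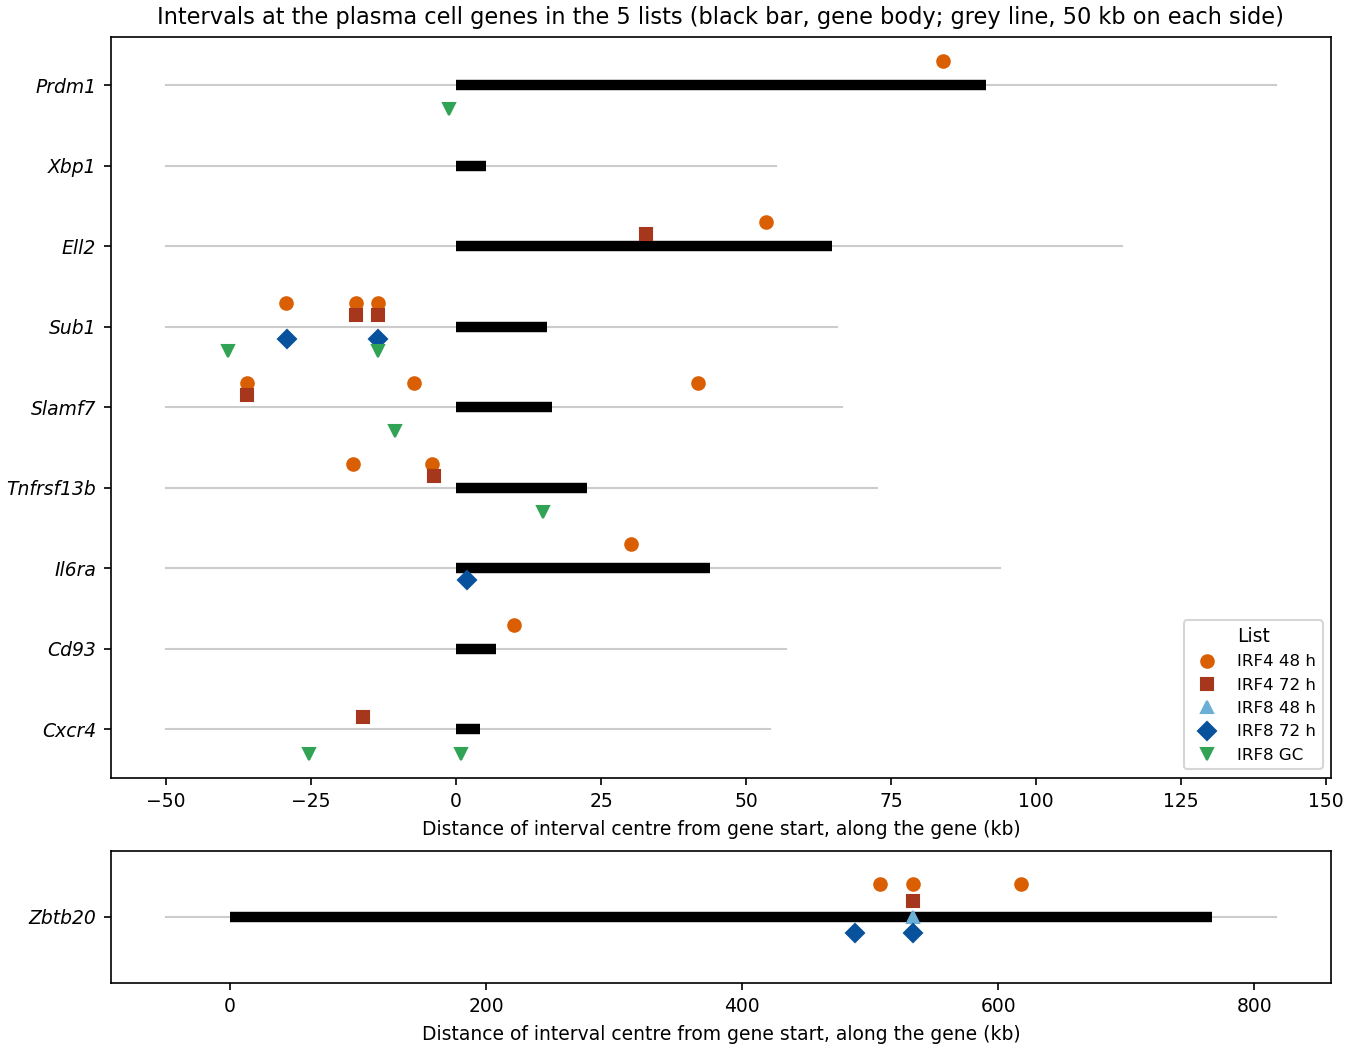
Each row is a gene drawn from its start (0 kb) in the direction of transcription, with the body as a black bar, 50 kb on each side in grey, and 1 mark per interval centre by list. Zbtb20, with a body of 767 kb, has a scale of its own, and Xbp1 has no mark.

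Among the regulators, Prdm1 had an IRF4 peak in LPS cells and an IRF8 interval in GC cells at different places, Xbp1 had none, and Zbtb20 had the only place held by all 4 LPS lists. Prdm1 (ENSMUSG00000038151.6, chromosome 10, 44156983 to 44248307, − strand) had an intronic IRF4 48 h peak at 44164157 to 44164657. It held a Normalized Tag Count of 44.2 (24.7 to 72.8), ranked 490 of 1573. It lay 83.9 kb from the gene start and 14.1 kb from the nearest annotated Prdm1 TSS. Its ISRE, GAAAAAGAAA, was centred 61.5 bp from the peak centre. In that list an ISRE lay in 4.54% of all windows, close to the 3.56% of windows 2000 bp away. The GC interval at 44248963 to 44249949 lay 1.15 kb upstream of the start, with the ISRE GAAAGTGAAA 39.5 bp from its centre and an ETS site 49.0 bp from it. In the GC list an ISRE lay in 13.5% of all windows and in 3.07% of windows 2000 bp away. No IRF4 72 h peak and no LPS IRF8 peak lay within 50 kb of Prdm1.

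The 50 kb limit cuts off a place of more tags downstream of Prdm1, at 56.1 to 56.6 kb past the gene end, which 4 lists held. The IRF4 48 h peak there, at 44100657 to 44101157, had a Normalized Tag Count of 91.3 (62.0 to 130), rank 66 of 1573. That is more than any IRF4 48 h peak inside the limit at any of the 10 genes. The IRF4 72 h peak at 44100301 to 44100801 had 37.2 (20.3 to 62.4), and the IRF8 72 h peak at 44100168 to 44100668 had 26.1 (11.3 to 51.4). A GC interval spanned 44100085 to 44101707 and covered these peaks. The LPS peaks are offset from each other, and those of IRF4 at 48 h and IRF8 at 72 h share a short stretch only. The place is intergenic, and the nearest TSS is that of Atg5, 34.5 to 34.9 kb away, so its target gene is not given by distance. Within the IRF4 72 h window it held an EICE, GGAACAGAAA, and an ISRE, GAAAGTGAAA, centred 35.5 and 10.5 bp from the peak centre and both on the − strand, so both are printed inverted. The windows of the IRF4 48 h peak and the GC interval held no searched element, and that of the IRF8 72 h peak held ETS sites only. In whole intervals the same EICE and ISRE lie in the IRF8 72 h peak, 97.5 and 122.5 bp from its centre. They also lie in the GC interval, 380.5 and 355.5 bp from its centre, and the IRF4 48 h peak does not reach them. Whole intervals held an EICE in 24.9% of the IRF8 72 h list and 23.0% of the GC list, and an ISRE in 16.3% and 37.4%.
Prdm1 downstream, IRF4 72 h, EICE and ISRE, chr10:44100451-44100651: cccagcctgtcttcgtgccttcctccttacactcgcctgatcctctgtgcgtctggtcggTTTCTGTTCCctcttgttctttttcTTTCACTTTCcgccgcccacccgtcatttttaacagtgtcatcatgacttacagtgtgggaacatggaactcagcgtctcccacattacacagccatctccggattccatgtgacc

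Xbp1 (ENSMUSG00000020484.11, chromosome 11, 5420662 to 5425896, + strand) had no interval in any list. The nearest was an IRF8 48 h peak of 25.1 at 5294111 to 5294611, 126 kb away, whose nearest TSS is that of Znrf3. Peaks below the callers' thresholds are not in the lists, so this says only that none was called there.

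Zbtb20 encodes a zinc finger repressor that helps plasma cells to survive. The gene (ENSMUSG00000022708.10, chromosome 16, 42875994 to 43642715, + strand) held 7 LPS peaks at 4 places, all intronic, and no GC interval. The place at 43409121 to 43409669, 533 kb from the gene start, was in all 4 LPS lists. Its Normalized Tag Count was 38.3 (20.4 to 65.4) for IRF4 at 48 h and 26.6 (12.7 to 48.8) for IRF4 at 72 h. For IRF8 it was 27.4 (14.2 to 47.9) at 48 h and 32.6 (15.6 to 60.0) at 72 h. The 4 intervals overlap, and the centres lay within 48 bp of each other. No searched element lay within 100 bp of these centres or elsewhere in the 4 peaks.

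The other Zbtb20 places were in 1 list each. An IRF8 72 h peak of 32.6 (15.6 to 60.0) at 43364170 to 43364670 lay 0.103 kb from an internal Zbtb20 TSS, with the EICE GGAAGTGAAA 10.5 bp from its centre and 2 ETS sites. An IRF4 48 h peak of 44.2 (24.7 to 72.8) at 43383204 to 43383704 held no searched element. An IRF4 48 h peak of 35.3 (18.3 to 61.7) at 43493699 to 43494199 held the spaced AICE shown above, 12.0 bp from its centre.

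Ell2 and Sub1 act in transcription, and Sub1 had more intervals than any other of the 10 genes. Ell2 encodes an RNA polymerase II elongation factor that favours the secreted form of antibody messenger RNA. The gene (ENSMUSG00000001542.6, chromosome 13, 75844932 to 75909804, + strand) had an intronic peak in each IRF4 list, at different places. The IRF4 72 h peak at 75877360 to 75877860, 32.7 kb from the start, had a Normalized Tag Count of 47.8 (28.3 to 75.5), rank 111 of 898. Its EICE, GGAAAGGAAA, lay 55.5 bp to one side of the centre and its AP-1 site 32.0 bp to the other. That EICE word was uncommon, found in 2.2% of the IRF4 72 h peaks with an EICE. The IRF4 48 h peak at 75898188 to 75898688, 53.5 kb from the start, had 26.5 (12.1 to 50.3), rank 1452 of 1573, with the spaced AICE 67.0 bp from its centre. No IRF8 list had an interval at Ell2.

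Sub1 encodes the transcriptional coactivator PC4. The gene (ENSMUSG00000022205.9, chromosome 15, 11911094 to 11926738, − strand) had 9 intervals at 4 places, all intergenic and upstream. The place 13.4 to 13.5 kb upstream was in 4 lists: both IRF4 lists, IRF8 at 72 h and the GC list (11939624 to 11940868). Its Normalized Tag Count was 64.8 (40.6 to 98.1) for IRF4 at 48 h, 63.7 (40.8 to 94.8) for IRF4 at 72 h and 32.6 (15.6 to 60.0) for IRF8 at 72 h. These ranked 169 of 1573, 58 of 898 and 400 of 1059. The IRF4 72 h rank is the best of any plasma cell gene peak in that list. An AP-1 site and the AP-1 site of the spaced AICE TTTCGCTTTGACTCA lie at this place, and the GC centre was 6.0 bp from the middle of the spaced AICE. In whole intervals an EICE, GGAAAAGAAA, lies farther out at this place in all 4 lists. Whole intervals held an EICE in 19.0% and 30.0% of the IRF4 lists (48 h and 72 h), 24.9% of the IRF8 72 h list and 23.0% of the GC list.

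The second Sub1 place, 17.2 to 17.3 kb upstream, was in both IRF4 lists, with 53.0 (31.4 to 83.7) at 48 h (11943784 to 11944284) and 29.2 (14.6 to 52.3) at 72 h (11943732 to 11944232), and held no searched element. The third, 29.2 kb upstream, was in the IRF4 48 h list with 55.9 (33.7 to 87.3) at 11955724 to 11956224 and in the IRF8 72 h list with 35.9 (17.9 to 64.2) at 11955715 to 11956215. It held an AP-1 site and an ETS site within 21.0 bp of both centres. Its fold over the surrounding region, by the authors' caller, was 36.1 in the IRF4 48 h list, the highest among the plasma cell gene peaks of that list. The fourth was a GC interval at 11965604 to 11966676, 39.4 kb upstream, in sequence with a median of 4 copies in the genome and with no element.

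The 5 surface receptors differed in how many lists held them: Slamf7 and Tnfrsf13b 3 each, Il6ra and Cxcr4 2 each, and Cd93 1. Slamf7 encodes a surface receptor of the SLAM family that is abundant on plasma cells. The gene (ENSMUSG00000038179.7, chromosome 1, 173562534 to 173579149, − strand) lies in a cluster of related genes, and 3 of its 5 intervals lay at neighbours. The place 36.0 kb upstream is in an intron of Cd48, 3.02 to 3.04 kb from a Cd48 TSS. There IRF4 had 67.7 (42.9 to 102) at 48 h (173614930 to 173615430), rank 146 of 1573, the best of any plasma cell gene peak in that list. At 72 h it had 37.2 (20.3 to 62.4), at 173614916 to 173615416. Both peaks held the same AP-1 site, 43.0 and 57.0 bp from their centres. An IRF4 48 h peak of 35.3 (18.3 to 61.7) at 173537194 to 173537694 lay in coding sequence of Ly9, 0.016 kb from a Ly9 TSS and 25.1 kb past the end of Slamf7, with an AP-1 site.

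Intervals nearest to Slamf7 itself were an IRF4 48 h peak of 44.2 (24.7 to 72.8) 7.33 kb upstream, at 173586232 to 173586732, and a GC interval 10.5 kb upstream, at 173589036 to 173590204. Neither held an EICE, ISRE or AP-1 site within 100 bp of its centre, and they did not overlap. Over its whole length the IRF4 48 h peak held an AP-1 site 124.0 bp from its centre, as 35.4% of that list held one.

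Tnfrsf13b encodes TACI, a receptor for the survival ligands BAFF and APRIL. The gene (ENSMUSG00000010142.6, chromosome 11, 60940257 to 60962874, + strand) had a place 3.8 to 4.18 kb upstream in both IRF4 lists. The IRF4 48 h peak at 60935824 to 60936324 had 35.3 (18.3 to 61.7), with an AP-1 site exactly at its centre (0.0 bp). The IRF4 72 h peak at 60936211 to 60936711 had 23.9 (10.9 to 45.4), with no element within 100 bp. The centres were 387 bp apart, so these peaks share a short stretch only. A second IRF4 48 h peak, of 26.5 (12.1 to 50.3), lay 17.7 kb upstream at 60922319 to 60922819, and a GC interval lay in an intron at 60954888 to 60955646, 0.696 kb from an internal Tnfrsf13b TSS. Neither held an EICE, ISRE or AP-1 site.

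Il6ra encodes the receptor for interleukin 6, a survival cytokine for plasma cells. The gene (ENSMUSG00000027947.7, chromosome 3, 89673246 to 89717084, − strand) had an intronic IRF4 peak and an intronic IRF8 peak at separate places. The IRF4 48 h peak at 89686601 to 89687101, 30.2 kb from the start, had 47.1 (26.9 to 76.5) and no element. The IRF8 72 h peak at 89715025 to 89715525, 1.81 kb from the start, had 29.4 (13.4 to 55.7), with the EICE GGAAGTGAAA 41.5 bp from its centre overlapping an ETS site.

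Cd93 encodes a surface glycoprotein that helps plasma cells to persist in bone marrow. The gene (ENSMUSG00000027435.8, chromosome 2, 148262376 to 148269299, − strand) had a single IRF4 48 h peak of 29.4 (14.1 to 54.1), at 148259112 to 148259612. It lay 3.01 kb past the gene end, ranked 1180 of 1573 and held no element.

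Cxcr4 encodes the receptor for CXCL12, which draws plasma cells to bone marrow and germinal centre B cells to the dark zone. The gene (ENSMUSG00000045382.6, chromosome 1, 130484776 to 130488870, − strand) was the only one of the 10 with more GC intervals than LPS peaks. A GC interval at 130486809 to 130489170 spanned the gene start, with its centre in the intron 0.881 kb inside. Over its whole 2362 bp it held the EICE GGAAGTGAAA and an ISRE, 464.5 and 184.5 bp from the centre. A second GC interval lay 25.4 kb upstream, at 130513813 to 130514752, with an EICE, GGAAGAGAAA, 370.5 bp from its centre. Neither GC interval held a searched element within 100 bp of its centre. Over whole intervals, 23.0% of the GC list held an EICE and 37.4% an ISRE. The IRF4 72 h peak at 130504669 to 130505169, 16.0 kb upstream, had 26.6 (12.7 to 48.8), with the EICE GGAAGTGAAA 58.5 bp from its centre. The nearest interval outside the 50 kb limit, an IRF4 48 h peak of 29.4 (14.1 to 54.1), lay 69.5 kb downstream with an adjacent AICE.

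**Figure D3:**
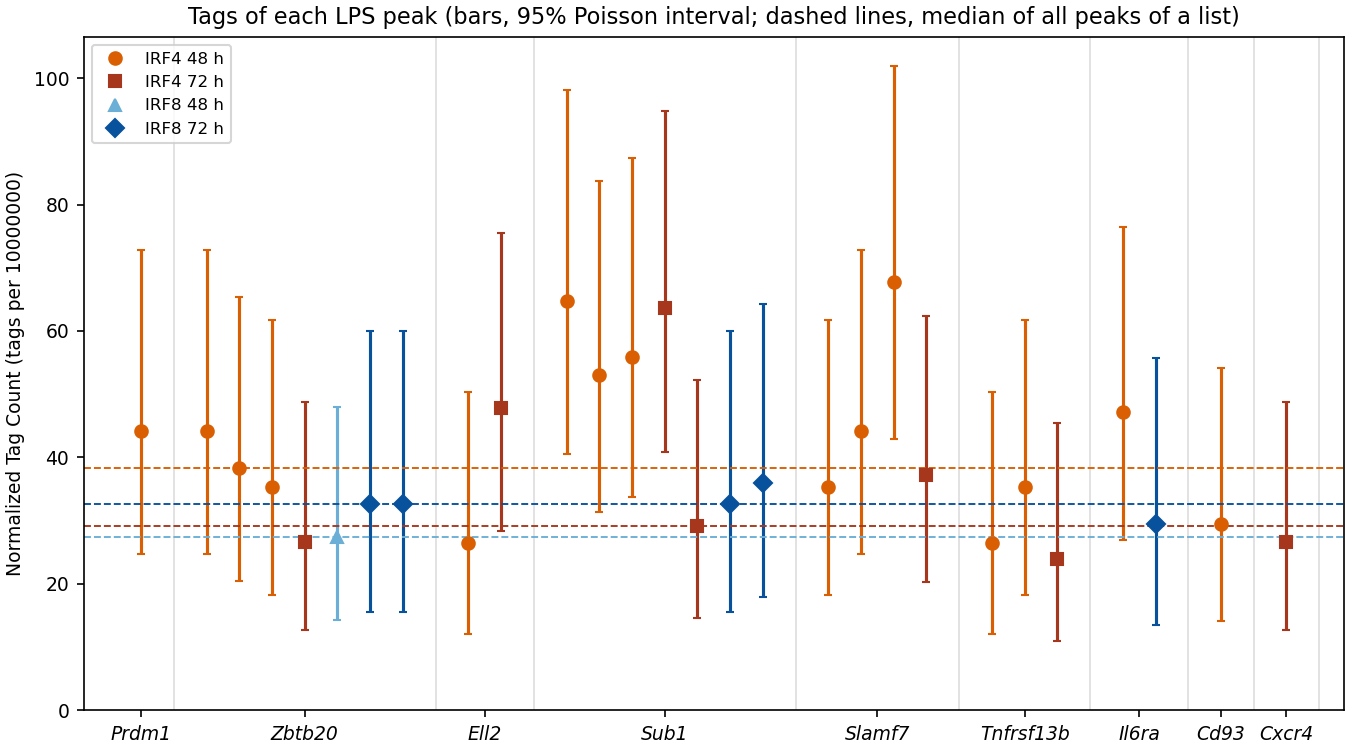
Each point is an LPS peak at a plasma cell gene, with its Normalized Tag Count (tags per 10000000) and exact 95% Poisson interval, coloured by list, and dashed lines mark the median of each list. The highest points are IRF4 peaks at Slamf7 (67.7) and Sub1 (64.8 and 63.7), and most intervals span their list median.

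As a set, the plasma cell gene peaks were close to the middle of their lists in tags. The 15 IRF4 48 h peaks had a median of 44.2 and ran from 26.5 to 67.7, with 8 above the list median of 38.3. The 7 IRF4 72 h peaks had a median of 29.2 and ran from 23.9 to 63.7, with 3 above the list median, also 29.2. The 5 IRF8 72 h peaks ran from 29.4 to 35.9, with 1 above the list median of 32.6. The single IRF8 48 h peak equalled its list median of 27.4. The best ranks in the 4 lists were 146, 58, 109 and 294.

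Within 100 bp of the centre, 18 of the 35 intervals held an EICE, an ISRE or an AP-1 site. By list this was 8 of 15 for IRF4 at 48 h, against 44.8% of all its peaks, and 4 of 7 for IRF4 at 72 h, against 46.6%. It was 0 of 1 for IRF8 at 48 h (33.6%), 4 of 5 for IRF8 at 72 h (38.6%) and 2 of 7 for GC IRF8 (23.3%). With so few peaks these counts lie near the list shares, apart from IRF8 at 72 h, where 2 of the 4 are the Sub1 places that the IRF4 48 h list shares.

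Of EICE, ISRE and AP-1 sites, AP-1 sites were the most frequent at the plasma cell genes. They were also the most frequent in the whole IRF4 48 h list, which gave 15 of the 35 intervals. Of the 25 distinct places, 8 held an AP-1 site (at Zbtb20, Ell2, Sub1, Slamf7 and Tnfrsf13b), 4 an EICE (Zbtb20, Ell2, Il6ra and Cxcr4) and 2 an ISRE (both at Prdm1). The AP-1 places of Slamf7 lay in its neighbours Ly9 and Cd48. Of the 8, 3 had the spaced AICE (Zbtb20, Ell2 and Sub1), and none of the 25 had the adjacent AICE. In the IRF4 48 h list 7 of the 15 peaks had an AP-1 site, against 28.7% of all its peaks and 4.07% of windows 2000 bp away. None of those 15 had an EICE, against 14.6% of the list, and 1 had an ISRE, against 4.54%. In the IRF4 72 h list 2 of 7 had an EICE (25.6% of the list) and 3 of 7 an AP-1 site (18.5%). In the IRF8 72 h list 2 of 5 had an EICE (22.1%) and 2 of 5 an AP-1 site (8.02%).

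The spaced AICE is rare, being present in 2.11% of all IRF4 windows at 48 h and 2.03% at 72 h, in 3.54% and 1.62% of those of IRF8, and in 0.767% of the GC windows. At the plasma cell genes IRF4 had it in 2 of 15 peaks at 48 h and in 1 of 7 at 72 h, IRF8 in 1 of 5 at 72 h and in 1 of 7 GC intervals, and 3 of these 5 are the same Sub1 place. Among all peaks with an EICE, the word GGAAGTGAAA of Zbtb20, Il6ra and Cxcr4 was the most common in the IRF8 LPS lists (47.7% at 48 h, 41.6% at 72 h). In the IRF4 lists it came after GGAACTGAAA, at 24% and 28.6% against 46.7% and 41.0%. A match is a description of the sequence, and these data do not show which partner was bound.

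**Figure D4:**
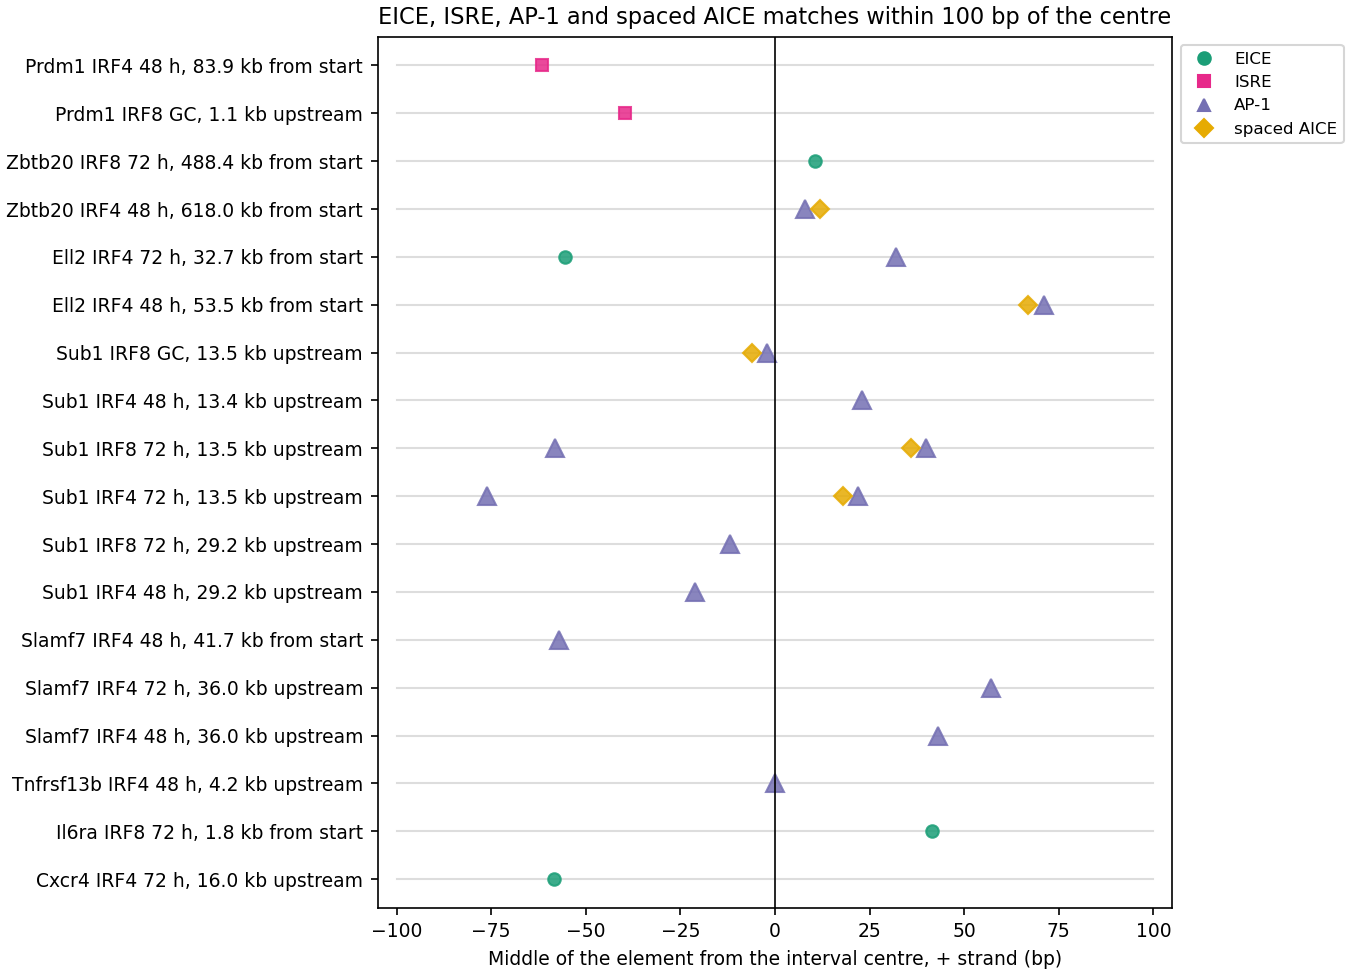
Each row is 1 of the 18 intervals with an EICE, ISRE or AP-1 match, and each mark gives the distance of the middle of a match from the interval centre in bp on the + strand. At Tnfrsf13b the AP-1 site lies at the centre (0.0 bp), and at Sub1 the same sites recur at shifted distances because the 4 centres differ.

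Most places at the plasma cell genes belonged to 1 list. Of the 25 places, 19 were in 1 list and 6 in at least 2, the latter at Sub1 (3), Zbtb20, Slamf7 and Tnfrsf13b. Of the 15 IRF4 48 h peaks 5 overlapped an IRF4 72 h peak, against 34.1% of all IRF4 48 h peaks, and of the 7 IRF4 72 h peaks 5 overlapped an IRF4 48 h peak, against 59.7%. Of the 5 IRF8 72 h peaks 3 overlapped an interval of another list, against 44.0%. Of the 7 GC intervals 1, at Sub1, overlapped an LPS peak, against 19.8%. These counts are near the shares of the whole lists. A different caller made the GC intervals, so caller and cell type cannot be told apart there.

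Tag counts at the shared places allow the libraries to be compared, place by place. Over 4 pairs of libraries there were 9 such comparisons at the plasma cell genes, each an exact two-sided binomial test of the tag numbers given the library totals, Benjamini-Hochberg adjusted over all shared places of the pair. These tests compare libraries, not conditions. IRF4 at 72 h was at 0.549 times its 48 h count at Slamf7 (95% interval 0.261 to 1.11, adjusted p = 0.507, exact binomial test). At the Sub1 place 17.3 kb upstream the ratio was 0.551 (0.235 to 1.23), at Tnfrsf13b 0.676 (0.252 to 1.75) and at Zbtb20 0.694 (0.272 to 1.71). At the Sub1 place 13.5 kb upstream it was 0.984 (0.529 to 1.84). None of the 5 was called, where 2.61% of the 536 shared places were, and the median ratio over all 536 was 0.765.

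IRF8 at 72 h over 48 h had 1 shared place at the genes, the Zbtb20 place, with a ratio of 1.19 (0.46 to 3.0), where 12.3% of the 138 places were called and the median ratio was 1.5. IRF8 over IRF4 at 48 h was 0.717 (0.299 to 1.7) at that place, where 18% of the 122 places were called and the median ratio was 0.731. At 72 h IRF8 over IRF4 was 0.512 (0.218 to 1.11) at the Sub1 place 13.5 kb upstream and 1.23 (0.459 to 3.29) at Zbtb20, where 0.388% of the 258 places were called and the median ratio was 1.03. None of the 9 comparisons passed the adjusted threshold of 0.05, and the smallest unadjusted p, at that Sub1 place, was 0.0842 (exact binomial test). All 9 intervals include 1, and with 9 to 24 tags a place they are too wide to show that the libraries were alike. Over shared places with sequence found once in the genome (single-copy places), the 72 h over 48 h median was 0.752 for IRF4 and 1.57 for IRF8. For IRF8 over IRF4 it was 0.657 at 48 h and 1.02 at 72 h. Scaled by these single-copy medians in place of total tags, 3 of the 9 turned direction. At the Sub1 place 13.5 kb upstream the IRF4 ratio became 1.31. At Zbtb20 the ratio of IRF8 72 h over 48 h became 0.758, and that of IRF8 over IRF4 at 48 h became 1.09. Only places called in both lists have a count in both, so places called in 1 list are not in this comparison.

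**Figure D5:**
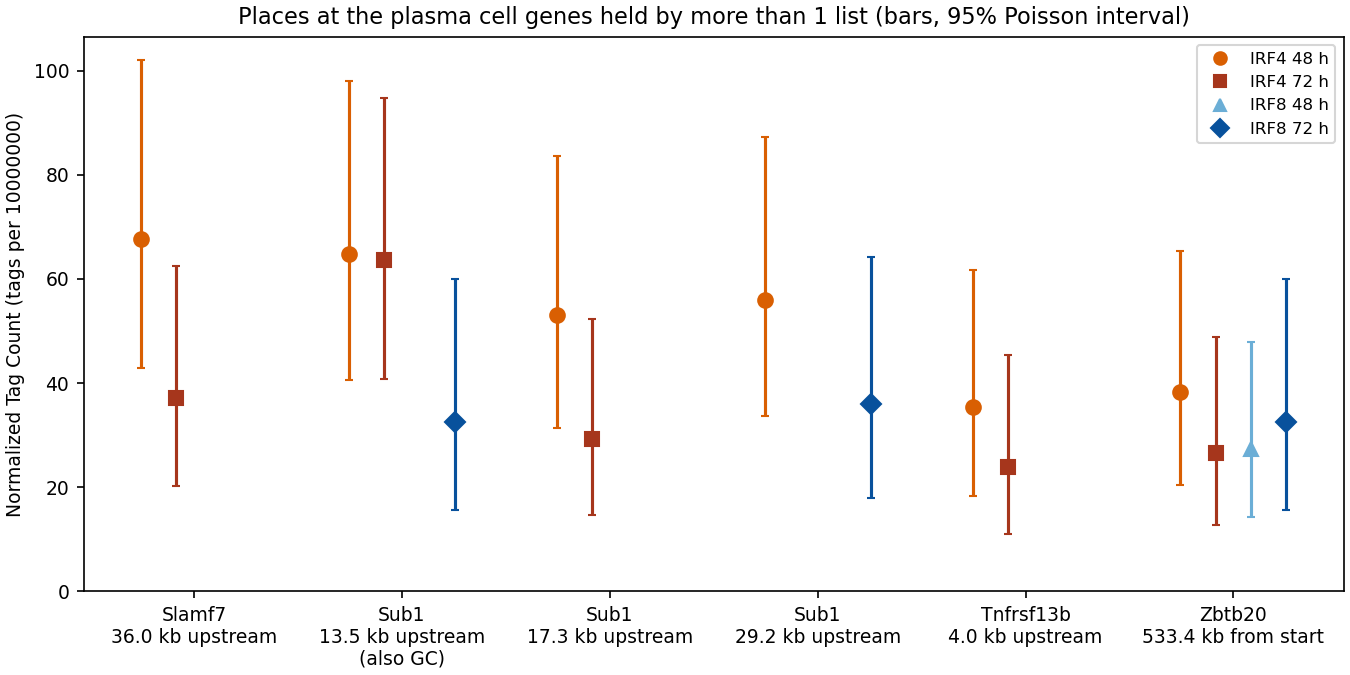
The 6 places held by more than 1 list are shown with the Normalized Tag Count (tags per 10000000) of each LPS list that called them and its exact 95% Poisson interval. The Poisson intervals of the libraries overlap at every place shown.

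The 29 other plasma cell genes, a list of secretory pathway, survival and surface genes, had an interval at 16 of their number in any list, against 28.2% of all genes. IRF4 had an interval at 9 of the 29 at 48 h (11.5% of all genes) and at 6 at 72 h (7.61%). IRF8 had one at 0 of the 29 at 48 h (1.99%), at 8 at 72 h (8.82%) and at 8 in GC cells (15.6%). Those with intervals in at least 3 lists were 3 of the 29, Irf4, Cd38 and Mcl1, against 4.75% of all genes. These genes too were picked with earlier results known. Those in 2 lists were Sdc1, Igj, Derl3, Txndc5, Ern1, Atf6 and Klf2. The difference between the sets of genes was not tested.

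Irf4, the gene of the factor itself, had 6 intervals in 4 lists, none in its body. A place 20.8 to 20.9 kb upstream was in the IRF4 48 h list (29.4, interval 14.1 to 54.1) and the IRF8 72 h list (26.1, 11.3 to 51.4) with the EICE GGAACCGAAA. IRF4 48 h peaks lay 16.4 kb upstream (53.0, 31.4 to 83.7, with an ISRE) and 63.8 kb from the start past the gene end (50, 29.2 to 80.1), where IRF4 at 72 h had 37.2 (20.3 to 62.4). A GC interval lay 10.8 kb upstream. Cd38, a surface ectoenzyme, had an intronic place 16.3 to 16.6 kb from its start in both IRF4 lists and the GC list. Its tag count there was 38.3 (20.4 to 65.4) at 48 h and 31.9 (16.5 to 55.7) at 72 h. An IRF8 72 h peak of 32.6 (15.6 to 60.0) lay past the end of Cd38, nearest to the TSS of Gm5292. Mcl1, a survival factor that plasma cells need, had an IRF4 48 h peak of 35.3 (18.3 to 61.7) overlapping a GC interval 7.24 to 7.88 kb upstream, and an IRF4 48 h peak of 26.5 (12.1 to 50.3) with an EICE 0.55 kb upstream. An IRF8 72 h peak of 29.4 (13.4 to 55.7) with an AP-1 site lay past its end, 6.49 kb from its start.

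Sdc1, which encodes the plasma cell marker CD138, had a place 58.4 to 58.5 kb from its start, past the gene end, with 35.3 (18.3 to 61.7) for IRF4 at 48 h and 29.4 (13.4 to 55.7) for IRF8 at 72 h. In the secretory pathway, Derl3 had a place in its untranslated region with 42.5 (24.3 to 69.0) for IRF4 at 72 h and a GC interval. Txndc5 had an intronic place with 47.1 (26.9 to 76.5) for IRF4 at 48 h and 29.2 (14.6 to 52.3) at 72 h. Of the sensors of protein folding stress, Atf6 had an intronic IRF4 48 h peak of 58.9 (36.0 to 90.9) and a GC interval. Ern1, which encodes the IRE1 enzyme that activates Xbp1 messenger RNA, had IRF8 72 h peaks of 26.1 (11.3 to 51.4) and 29.4 (13.4 to 55.7) and a GC interval, all nearer to the TSS of Icam2. Igj, the antibody joining chain, had an IRF4 72 h peak of 23.9 (10.9 to 45.4) nearer to Utp3 and a GC interval with a spaced AICE. Klf2, a homing regulator, had an IRF4 48 h peak of 41.2 (22.5 to 69.1) that overlapped an IRF4 72 h peak of 29.2 (14.6 to 52.3), and 2 more IRF4 48 h peaks of 32.4 (16.2 to 57.9) each.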

How the data were processed

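ChIP-seq for IRF4 or IRF8 was made from 5 libraries, 1 per group. For the LPS libraries the authors ran HOMER findPeaks in factor mode, per the file headers (peaks of 500 bp, false discovery rate 0.001, at least 4-fold over the local 10000 bp). Their signal, the Normalized Tag Count, was scaled to 10000000 tags, per the file headers. The deposited findPeaks score, the focus ratio (a fraction), the p-value against the local region and the folds are the authors' own, and only the fold over the local region is printed. The tag directory named in the IRF8 72 h header carries the mark rep2. The deposited GC list gives positions only and was called with MACS, per the series' design text. The submitters' processing notes name mm9, BWA and Bowtie2, and the aligner used for each library is not settled by the sources used here.

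Undoing the scaling gave whole tags (within 0.05) for 100% of peaks, and these gave the exact Poisson intervals and binomial tests, computed with scipy 1.17.1 and statsmodels 0.14.6 and tested on simulated data. All intervals are at 95% and cover counting error only, since there was 1 library per group. The tags also carry no molecular identifiers. Overlap means at least 1 bp. Copies in the genome are the median count of 24-base words within 100 bp of a centre. All 10 genes are named with every peak, and of the 29 other genes those with peaks in at least 2 lists. One sequence was printed per gene, from the peak of most tags with an element, and the other sequences were chosen after their values were seen. The genes and lists were chosen with earlier results of these data known. Alternatives were tried for distance, gene assignment, peak threshold, repeated sequence, motif window, overlap and scaling.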

Additional observations from a re-analysis of the deposited data

Results flagged for a closer look

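At the Zbtb20 place held by all 4 LPS lists, the tag ratio of 72 h over 48 h was 0.694 (95% interval 0.272 to 1.71) for IRF4 and 1.19 (0.46 to 3.0) for IRF8, in opposite directions. The difference between the factors was not tested, each ratio rests on 1 library per time, and both intervals include 1. By total tags, the median ratio over all places shared by each pair was 0.765 for IRF4 and 1.5 for IRF8. Scaled by the median ratio of the shared single-copy places instead, the Zbtb20 ratios were 0.923 for IRF4 and 0.758 for IRF8, both below 1, so the opposite directions depend on the scaling.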

How the results depend on the processing

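Under the alternatives, 73 values were classed as the same, 23 as moved and 3 as turned in direction. A count classed as the same could still change. For IRF4 at 48 h, genes with a peak went from 8 to 6 among peaks of at least the pooled median tag count. With 10 kb in place of 50 kb around the gene body, plasma cell gene peaks numbered 9 for IRF4 at 48 h, 3 for IRF4 at 72 h, 3 for IRF8 at 72 h and 3 for GC IRF8, and genes with an interval 3 for IRF4 at 72 h and 3 for GC. Keeping only LPS peaks of at least the pooled median of 32.6, IRF4 at 72 h kept 3 genes and 3 peaks, and IRF8 at 48 h kept 0 genes and 0 peaks. Within 50 bp of the centre, peaks with an EICE, ISRE or AP-1 site numbered 5 for IRF4 at 48 h and 2 for IRF4 at 72 h, and over whole intervals 4 for GC. Both stricter overlap rules gave 5 shared places in place of 6, without Tnfrsf13b.

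Scaling each pair of libraries by the median ratio of its shared single-copy places in place of total tags gave 8 places called higher and 5 lower for IRF4 72 h over 48 h (0 and 14 by total tags). For IRF8 72 h over 48 h it gave 0 and 3 (17 and 0). For IRF8 over IRF4 at 48 h it gave 10 and 6 (1 and 21), and at 72 h 0 higher (1). Directions of called places across all genes thus depend on the scaling. The uncalled ratios that turned direction were the Sub1 place 13.5 kb upstream for IRF4 (1.31) and the Zbtb20 place for IRF8 72 h over 48 h (0.758) and for IRF8 over IRF4 at 48 h (1.09). With single-copy places only, IRF8 72 h over 48 h had 7 places higher, and IRF8 over IRF4 at 48 h had 0 higher and 9 lower. No comparison at a plasma cell gene was called under any of these settings. No paired analysis was possible because each group had 1 library and the labels carry no replicate numbers, and for the same reason no replicate could be left out. Depth limits the comparison of libraries, since the plasma cell gene peaks held 9 to 24 tags.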
